A study of Mus musculus with 76 samples.

Results

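Visceral fat of mice with partial nephrectomy (PNx), a surgical loss of kidney mass that models chronic kidney failure, was compared between animals given cells carrying Lenti-adipo-NaKtide and animals given no cells. The libraries were chosen by their labels, 5 for PNx with NaKtide cells and 5 for PNx alone, which makes 10 of the 76 libraries of a series on heart, kidney and visceral fat. All mice were male Fox Chase SCID (CB17/Icr-Prkdcscid), 12 weeks old per the labels, and carry the Prkdc scid allele, so every group, controls included, lacks working T and B lymphocytes. The other visceral fat groups, used here only for reference, were sham surgery without cells (Sham, 5 libraries), PNx with control cells (5 libraries) and PNx with Lenti-adipo-scrambled cells (4 samples, 1 of them sequenced as 2 libraries that were added together). The labels do not name the kind of cell transplanted, the number given or the route. Nor do they tie libraries to separate animals, so p-values measure the spread between these libraries, which may be technical.

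NaKtide is a peptide that blocks signalling between the Na/K-ATPase, the sodium pump, and the tyrosine kinase Src. In this signalling path, ligands of the pump activate Src and downstream kinases, which in fat cells are known to raise oxidant stress and to alter adipokine release. Visceral fat stores lipid in adipocytes and secretes hormones such as leptin and adiponectin. No mouse gene measured here reads the NaKtide construct itself, so the labels could not be checked by the transgene.

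The 5 NaKtide libraries held 6576919 to 12449700 counts (median 9581412) and the 5 PNx libraries 5666563 to 9072458 (median 6741596). In the NaKtide libraries 21530 to 24203 genes were detected, and in the PNx libraries 21049 to 22332. Adipocyte markers were high in both groups, as the label of visceral fat implies. Adipoq (adiponectin) stood at 1983 ± 605 CPM (counts scaled to library size; mean ± SD, n = 5) with NaKtide cells and 2401 ± 222 CPM in PNx, and Fabp4, the fatty acid carrier of adipocytes, at 4435 ± 1334 and 5624 ± 455 CPM. CPM is edgeR's unit of counts relative to the total after TMM scaling.

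Marker genes of other tissues differed strongly between single libraries. The summed level of the seminal vesicle and prostate list was 46800 CPM in NaKtide cells 5 and between 16.6 and 105 CPM in the other 4 NaKtide libraries, against 1.04 to 4.18 CPM in the PNx libraries. All 8 tested members of the list were higher with NaKtide cells by point estimate, and the groups did not overlap for 7 of them, where 0.570% of all genes tested were higher without overlap. Svs3a, a seminal vesicle secretory gene, was at 0 in all 5 PNx libraries. The difference in the summed level gave an exact two-sided permutation p of 0.00794, the smallest that 5 against 5 allows, and 0.0715 after Benjamini-Hochberg adjustment over 18 library measures; with CPM of the plain library total the adjusted value was 0.0357. NaKtide cells 5 also had the highest smooth muscle sum, 1422 CPM against 185.5 to 377 CPM in the other 9 libraries.

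Liver genes stood apart in a PNx library. Alb (albumin) was at 1211 CPM in PNx 3, 27.3 to 42.1 CPM in the other PNx libraries and 11 to 76.3 CPM with NaKtide cells. Apoa1, an apolipoprotein made in liver and gut, was at 238 CPM in PNx 3 and at 0.351 to 7.46 CPM elsewhere. The summed liver list ran from 2430 to 3955 CPM with NaKtide cells and from 5363 to 7478 CPM in PNx (exact two-sided permutation p = 0.00794, adjusted p = 0.0715, or 0.0357 with the plain total). Most of that sum is Cyp2e1, a cytochrome P450 that mouse fat also expresses, at 1535 to 3124 CPM with NaKtide cells and 3914 to 5131 CPM in PNx.

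A further split crossed the groups. Genes of duct epithelium (10 tested, among them Pax8, Cdh16 and Lrp2) and of ciliated cells (15 tested, among them Foxj1, the regulator of motile cilia) were added as lists after the values were seen. The duct list summed to 522 to 918 CPM in NaKtide cells 2, 3 and 5 and to 592 to 755 CPM in PNx 1 and 2, but to 5.48 to 23.9 CPM in the other 5 libraries. The first principal component, which held 52.6% of the variance over the 10 libraries, separated the same 5 libraries from the other 5. Library NaKtide cells 1 had the highest blood sum, 9567 CPM, against 1211 to 3645 CPM elsewhere. An RNA length index, the mean log2 level of short minus long genes, was highest in PNx 2 (0.06) and NaKtide cells 1 (-0.13), and lay between -1.31 and -0.41 in the other 8 libraries. The part of these library differences in the gene results below was not tested beyond the alternatives given.

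**Figure D1:**
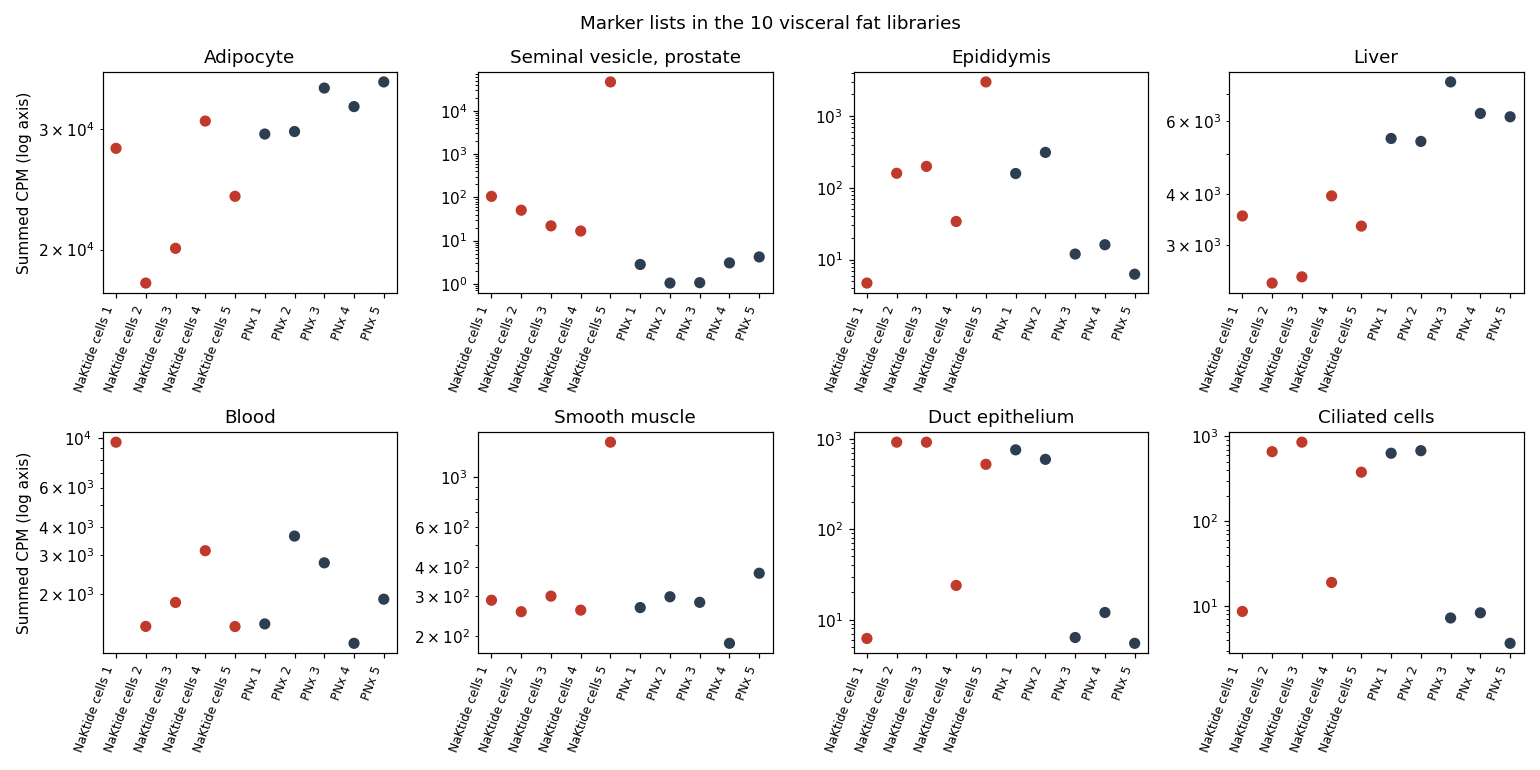
Summed CPM (log axis) of 8 marker lists in each of the 10 visceral fat libraries, NaKtide cells in red and PNx in dark blue. Seminal vesicle markers reached 46800 CPM in NaKtide cells 5, and duct epithelium and ciliated cell markers were high in 3 NaKtide and 2 PNx libraries.

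No gene passed the test between NaKtide cells and PNx. Of 17552 genes tested with edgeR's quasi-likelihood F test over the 5 visceral fat arms, 0 (0%) were called at an adjusted p under 0.05, and 652 had an unadjusted p under 0.05, 325 of them higher and 327 lower with NaKtide cells. The lowest adjusted p was 0.803. The unadjusted count was 1753 without PNx 2 and 394 without PNx 3, with 0 called in both. DESeq2 called 30 of 21929 genes (0.137%), limma voom with quality weights called 3795 of 17552, and an edgeR fit of only these groups called 1 of 15916. The groups did not overlap for 100 genes that were higher with NaKtide cells (again 0.570% of those tested) and for 112 that were lower (0.638%). The genes below are therefore given as the lowest p-values, not as changed genes.

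The 5 higher genes of lowest p, leaving out low genes (mean log2 CPM under 2) and predicted names, were Tuba1a, Sfrp5, Slc7a11, C1qtnf7 and Svs2. Tuba1a (chromosome 15, 98949837 to 98953703), an alpha-tubulin of microtubules, was at 1219, 635, 810, 626 and 719 CPM in NaKtide cells 1 to 5 and at 301, 435, 308, 331 and 294 CPM in PNx 1 to 5. The groups did not overlap, and all 5 NaKtide libraries also lay above every control cell, scrambled cell and Sham library. The log2 difference was 1.27 ± 0.30 (SE; 95% interval 0.64 to 1.89; edgeR adjusted p = 0.803).

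Tuba1a shares most of its coding sequence with Tuba1b and Tuba1c, so reads may have been split between them. Tuba1c stood at 812 to 1355 CPM with NaKtide cells and 516.5 to 668 CPM in PNx, and Tuba1b at 818 to 1501 and 584 to 816 CPM. Neither pair of groups overlapped. In a list of 12 tubulin genes added after the values were seen, all 11 tested had positive differences, with a median log2 difference of 0.32 against 0.03 over all genes tested.

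Sfrp5 (chromosome 19, 42197971 to 42202252) encodes a secreted antagonist of Wnt ligands that fat releases as an adipokine. Its level was 87.4, 100, 101 and 67.5 CPM in NaKtide cells 1 to 4 but 8.91 CPM in NaKtide cells 5, and 7.73, 11.4, 13.3, 4.11 and 7.57 CPM in PNx 1 to 5. NaKtide cells 5 thus lay inside the PNx range while the other 4 libraries lay above it, and the log2 difference was 3.04 ± 0.72 (95% interval 1.55 to 4.54; edgeR adjusted p = 0.803). The same library carried the seminal vesicle signal, and without it the log2 difference was 3.32.

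Slc7a11 (chromosome 3, 49892526 to 50443614) is the cystine importer that feeds glutathione synthesis. It was at 115, 57.7, 80.5, 59.9 and 55.4 CPM in NaKtide cells 1 to 5 against 32.7, 47.8, 36.6, 34.8 and 32.4 CPM in PNx 1 to 5, a log2 difference of 1.0 ± 0.24 with no overlap. Sham libraries ran from 43.0 to 79.6 CPM and overlapped the NaKtide range. C1qtnf7 (chromosome 5, 43515538 to 43618803), a secreted protein related to complement C1q and adiponectin, was at 10.6 ± 1.2 CPM with NaKtide cells and 5.34 ± 1.67 CPM in PNx. Its NaKtide libraries, at 8.84 to 12.1 CPM, lay above all 19 other visceral fat samples.

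Svs2 (chromosome 2, 164235929 to 164238466), a secreted protein of the seminal vesicle, was at 20.4, 13.1, 5.62, 4.27 and 13030 CPM in NaKtide cells 1 to 5 and at 0.493, 0.208, 0.303, 0 and 0.914 CPM in PNx 1 to 5. The groups did not overlap, but nearly all of the NaKtide signal came from 1 library. The fitted log2 difference of 12.68 ± 3.25 was 4.78 without NaKtide cells 5. Control cell libraries reached 913 CPM and 1 scrambled cell sample 491 CPM, so high values were not limited to the NaKtide group.

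**Figure D2:**
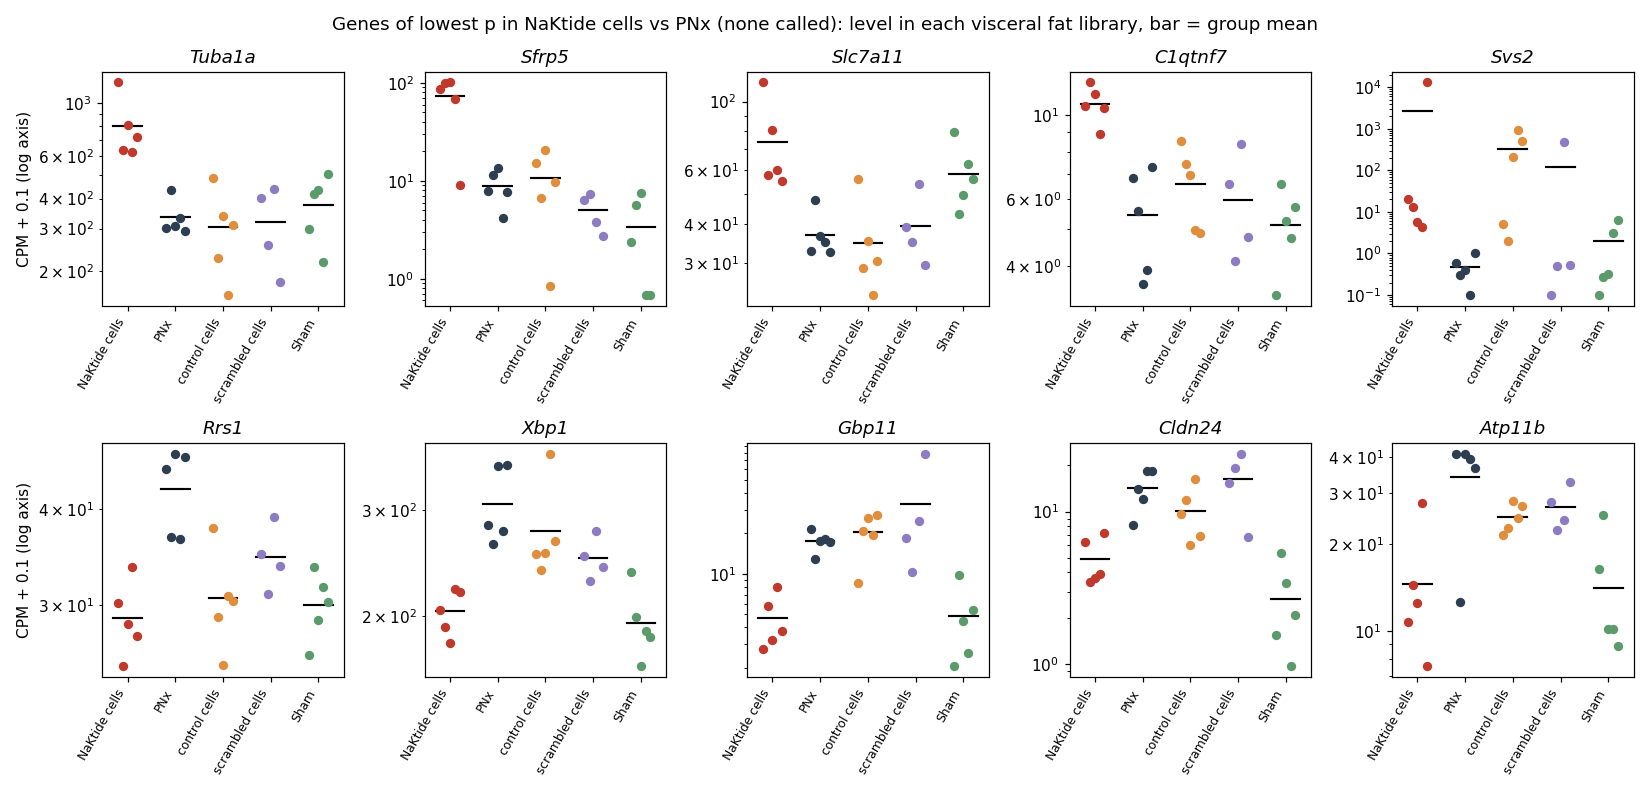
Level of each of the 10 genes of lowest p (CPM plus 0.1, log axis) in every visceral fat sample of the 5 groups, with the group mean as a bar. Tuba1a and C1qtnf7 were above all other samples in the 5 NaKtide libraries, and Svs2 was carried by NaKtide cells 5.

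The 5 lower genes of lowest p were Rrs1, Xbp1, Gbp11, Cldn24 and Atp11b. Rrs1 (chromosome 1, 9545408 to 9547455), a factor of large ribosomal subunit assembly, was at 30.0, 24.8, 28.2, 33.5 and 27.2 CPM in NaKtide cells 1 to 5 and at 45.1, 36.7, 47.2, 36.5 and 46.7 CPM in PNx 1 to 5, with no overlap (log2 difference -0.56 ± 0.13, edgeR adjusted p = 0.803). Xbp1 (chromosome 11, 5520659 to 5525893), a transcription factor of the unfolded protein response, was at 205, 192, 181, 222 and 219 CPM against 284, 264, 355, 277 and 357 CPM, also without overlap (log2 difference -0.59 ± 0.14). The 5 Sham libraries held 29.9 ± 2.96 CPM of Rrs1 and 195 ± 26.4 CPM of Xbp1 (SD, n = 5).

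Gbp11 (chromosome 5, 105323042 to 105346472), annotated in GENCODE as a polymorphic pseudogene, belongs to the family of interferon-inducible guanylate-binding proteins, whose clustered copies can share reads. It was at 2.65, 5.62, 3.12, 7.93 and 3.68 CPM in NaKtide cells 1 to 5 and at 21.4, 12.8, 17.6, 17.9 and 17.1 CPM in PNx 1 to 5, a log2 difference of -1.92 ± 0.49 with no overlap. Cldn24 (chromosome 8, 47822143 to 47822805), a claudin of tight junctions, stood at 4.82 ± 1.73 CPM with NaKtide cells and 14.1 ± 4.42 CPM in PNx, again with no overlap. Atp11b (chromosome 3, 35754106 to 35856276), a flippase that moves phospholipids across membranes, was at 36.7 to 41.0 CPM in 4 PNx libraries but 12.6 CPM in PNx 2, inside the NaKtide range of 7.46 to 27.6 CPM.

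The same 10 genes were followed in the other visceral fat comparisons, which share the NaKtide or the PNx libraries with the main one and so are not independent of it. Between NaKtide and scrambled cells edgeR called 414 of 17552 genes (2.36%), 42 higher and 372 lower. Of the 10, 4 were among them, namely Tuba1a (log2 difference 1.33 ± 0.32, adjusted p = 0.0309), Sfrp5 (3.88 ± 0.83, adjusted p = 0.0132), Gbp11 (-2.84 ± 0.51, adjusted p = 0.0078) and Cldn24 (-1.75 ± 0.43, adjusted p = 0.0323). The duct score, the mean log2 CPM of the duct and ciliated lists, was -1.74 to -0.28 in the scrambled samples and -1.15 to 5.69 in the NaKtide libraries, and with that score as a covariate 217 genes were called. Skeletal muscle markers summed to 829 to 63120 CPM and pancreas markers to 9.47 to 64400 CPM in the scrambled samples, against 63.8 to 178 and 3.79 to 22.8 CPM with NaKtide cells. With tissue scores as covariates edgeR called 0 genes there (1246 at an unadjusted p under 0.05), so the 4 calls above were lost. The muscle sums of these groups do not overlap, so that fit can hardly separate tissue score from group. It cannot decide whether the 4 genes differ. The count without covariates was 159, 147, 202 and 242 without NaKtide cells 2, 3, 4 and 5 in turn, and 740, 259, 676 and 155 without scrambled cells 1, 2, 3 and 4. Between NaKtide and control cells 0 of 17552 genes (0%) were called by edgeR, with 1330 at an unadjusted p under 0.05, 317 by DESeq2 and 122 by voom. There Tuba1a differed by 1.4 ± 0.30, Sfrp5 by 2.80 ± 0.71, Slc7a11 by 1.09 ± 0.24 and Gbp11 by -2.16 ± 0.49 on the log2 scale, each at an edgeR adjusted p of 0.132. Rrs1 differed by only -0.08 ± 0.12 (edgeR adjusted p = 0.937), at 30.5 ± 4.67 CPM with control cells (mean ± SD). C1qtnf7 (0.72), Xbp1 (-0.45), Cldn24 (-1.05), Atp11b (-0.78) and Svs2 (3.01) had edgeR adjusted p-values from 0.233 to 0.846.

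PNx against Sham gave 2283 called genes (13.0%), 848 higher and 1435 lower, and all 5 of the lower genes named above were called higher in PNx there. The log2 differences, PNx minus Sham, were 0.51 ± 0.13 for Rrs1 (edgeR adjusted p = 0.0104), 0.66 ± 0.14 for Xbp1 (0.00394), 1.87 ± 0.49 for Gbp11 (0.0146), 2.46 ± 0.43 for Cldn24 (0.00086) and 1.28 ± 0.34 for Atp11b (0.016). Both comparisons rest on the same 5 PNx libraries, so the opposite signs are not independent observations. Epididymis markers summed to 578 to 52900 CPM in Sham and 6.26 to 311 CPM in PNx, and with tissue scores as covariates 0 genes were called between PNx and Sham by edgeR. These sums do not overlap, so that fit can hardly separate tissue score from group. The count was 1137, 4057 and 1089 without Sham 1, 2 and 4 in turn and 1492 without PNx 5. Tuba1a (-0.17 ± 0.30) and C1qtnf7 (0.08 ± 0.25) were not called there.

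**Figure D3:**
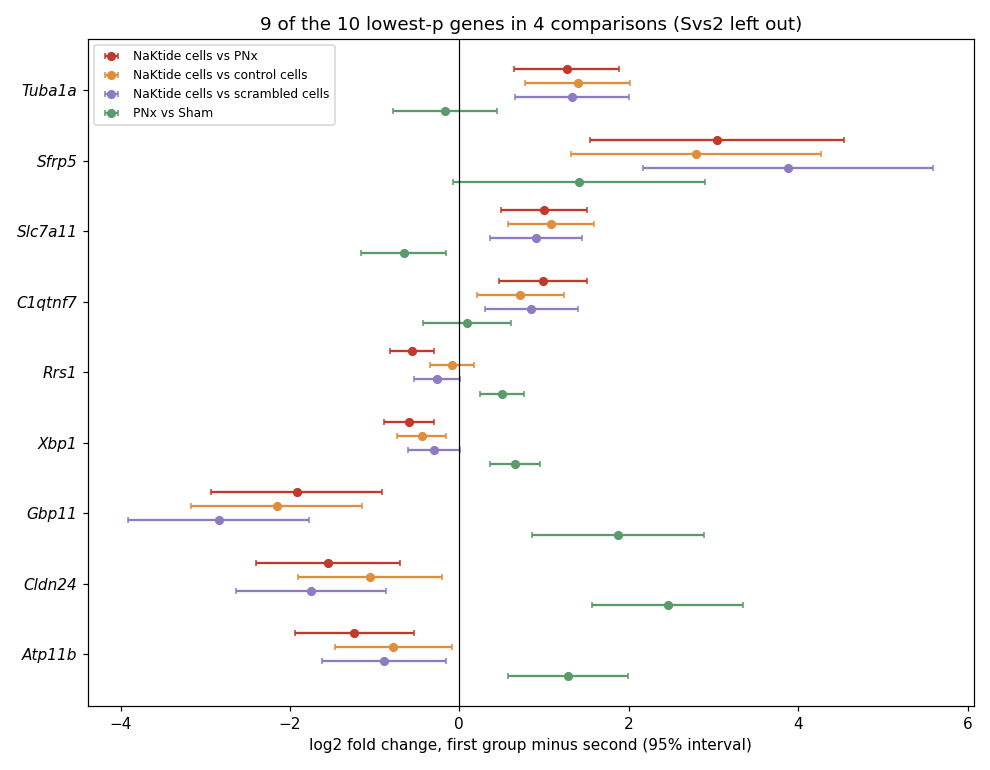
Log2 fold change with its 95% interval for 9 of the 10 genes of lowest p in 4 visceral fat comparisons, first group minus second; Svs2 is left out for scale. Rrs1, Xbp1, Gbp11, Cldn24 and Atp11b had negative values for NaKtide cells minus PNx and positive values for PNx minus Sham, 2 comparisons that share the PNx libraries.

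Of 16 genes chosen for their roles in fat and in signalling, 14 were tested and edgeR called 0, with 1 at an unadjusted p under 0.05. DESeq2 called 0 of the 14 and voom called 2, Fasn and Src. Over all genes voom called a larger share, 3795 of 17552. Tnf (47 counts over the 10 libraries) and Il6 (3 counts) were too low to test. Lep, the satiety hormone of adipocytes, was at 675, 728, 566, 1091 and 448 CPM in NaKtide cells 1 to 5 and at 411, 330, 367, 364 and 416 CPM in PNx 1 to 5. These groups did not overlap, and the log2 difference was 0.89 (95% interval -0.22 to 2.01, edgeR adjusted p = 0.969). Ccl2, a monocyte chemokine, was likewise without overlap at 3.20 ± 0.39 against 1.59 ± 0.40 CPM, on few counts, with an interval from -0.65 to 2.66.

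Fasn, the fatty acid synthase, was at 4121 ± 1109 CPM with NaKtide cells and 7968 ± 3068 CPM in PNx (log2 difference -0.95, 95% interval -1.91 to 0.00). Under voom its log2 difference was -1.07 (adjusted p = 0.0298), and with the duct score as a covariate in edgeR it was -0.64. Pparg, the master regulator of adipocytes, differed by -0.36 (interval -1.23 to 0.50), Slc2a4, the insulin-regulated glucose transporter, by -0.30 (-1.11 to 0.51), and Cd36, a fatty acid receptor, by -0.44 (-1.36 to 0.49). These intervals include 0 and also differences beyond -1 on the log2 scale, so they do not show that the levels were equal.

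**Figure D4:**
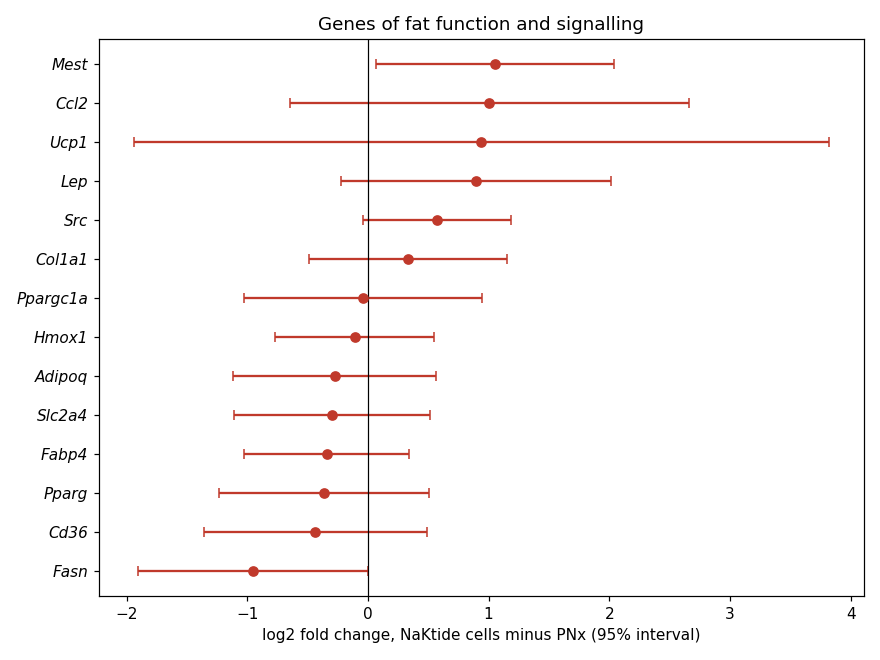
Log2 fold change, NaKtide cells minus PNx, with its 95% interval for the 14 tested genes of fat function and signalling. The estimates ran from -0.95 for Fasn to 1.05 for Mest; edgeR called none of these genes, and voom called Fasn and Src.

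The genes of the pump and of Src were examined as lists. Of 11 Na/K-ATPase subunits and FXYD regulators tested, 0 were called and the median log2 difference was 0.29 against 0.03 over all genes tested. With the duct score as a covariate that median was 0.05, without NaKtide cells 1 it was 0.16 and without PNx 1 it was 0.17. Fxyd6, a small regulator of the pump, was the member without overlap, at 4.57 to 15.3 CPM with NaKtide cells and 1.30 to 3.78 CPM in PNx; it was singled out after its values were seen. In the list of 16 tested Src family and downstream genes 0 were called and the median was -0.08. Src itself was at 29.1 ± 7.78 CPM with NaKtide cells and 19.6 ± 4.59 CPM in PNx (log2 difference 0.57, interval -0.04 to 1.18). Voom called Src, at a log2 difference of 0.80 (adjusted p = 0.0162), where edgeR did not. With the duct score as a covariate in edgeR the Src log2 difference was 0.37, the lowest of the alternatives. RNA levels do not measure the activity of the kinase or of the pump.

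Across 36 lists of fat, immune, matrix and stress genes, edgeR called 0 of the 564 genes tested, with 23 at an unadjusted p under 0.05, and the list medians ran from -0.79 to 0.71. DESeq2 called 3 of the 564 (Sfrp5, Slc7a11 and Xbp1) and voom called 105, 40 of them higher and 65 lower. Over all genes DESeq2 called 30 of 21929, and voom called 3795 of 17552, a larger share than in the lists. In de novo lipogenesis 17 of 20 genes had negative differences and the median was -0.47; Scd1, the fatty acid desaturase with the highest level in the list, was at 6353 to 21130 CPM in PNx and 7900 to 21230 CPM with NaKtide cells. Lists of fat and glucose uptake (median -0.38, 14 of 15 negative), adipocyte transcription factors (-0.32, 14 of 16 negative), lipid droplet and lipolysis (-0.31, 17 of 20 negative) and fatty acid oxidation (-0.27, 18 of 20 negative) lay below the median of all genes as well. With the duct score as a covariate these 4 medians were -0.24, -0.18, -0.20 and -0.17 in the same order, while under voom the last 3 were -0.51, -0.47 and -0.44. Members whose groups did not overlap, picked after their values were seen, included Srebf1, the activator of lipogenic genes, at 332 to 454 CPM with NaKtide cells and 468 to 615 CPM in PNx, and Slc27a1, a fatty acid transporter, at 236 to 428 and 465 to 926 CPM. Of the 564 genes, 6 were higher and 11 lower without overlap, where 0.570% and 0.638% of all genes tested were.

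The summed level of the 10 adipocyte markers was also lower on average with NaKtide cells. The 10 include Plin1, Cidec, Lipe and Pparg, so their sum is not independent of these lists. By point estimate 9 of the 10 were lower and 1, Lep, was higher. The sum was 17860 to 30840 CPM with NaKtide cells and 29520 to 35190 CPM in PNx (exact two-sided permutation p = 0.0238, adjusted p = 0.107, or 0.0357 with the plain library total). Fewer adipocytes and less RNA per adipocyte cannot be told apart in bulk tissue, and the part of this sum in the lipid lists was not tested.

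Mesothelial genes had the highest list median, 0.71, with 11 of 12 members positive and none without overlap. The median was 0.43 without PNx 5 and 1.62 without PNx 4, the PNx library with the most Upk3b, a mesothelial surface protein (175 CPM against 8.88 to 46.3 CPM in the other PNx libraries). Immediate early genes had a median of 0.48, with 12 of 14 positive; Jund and Jun, transcription factors of the AP-1 family, stood at 75.5 to 144 and 45.1 to 76.2 CPM with NaKtide cells and at 75.5 to 131 and 29.5 to 46.2 CPM in PNx. All 28 cytosolic ribosome genes had positive differences with a median of 0.21, which was 0.00 without NaKtide cells 1, 0.12 without PNx 4, 0.34 without NaKtide cells 2 and 0.48 without PNx 2. Inflammatory genes had a median of 0.35, against -0.03 under voom.

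**Figure D5:**
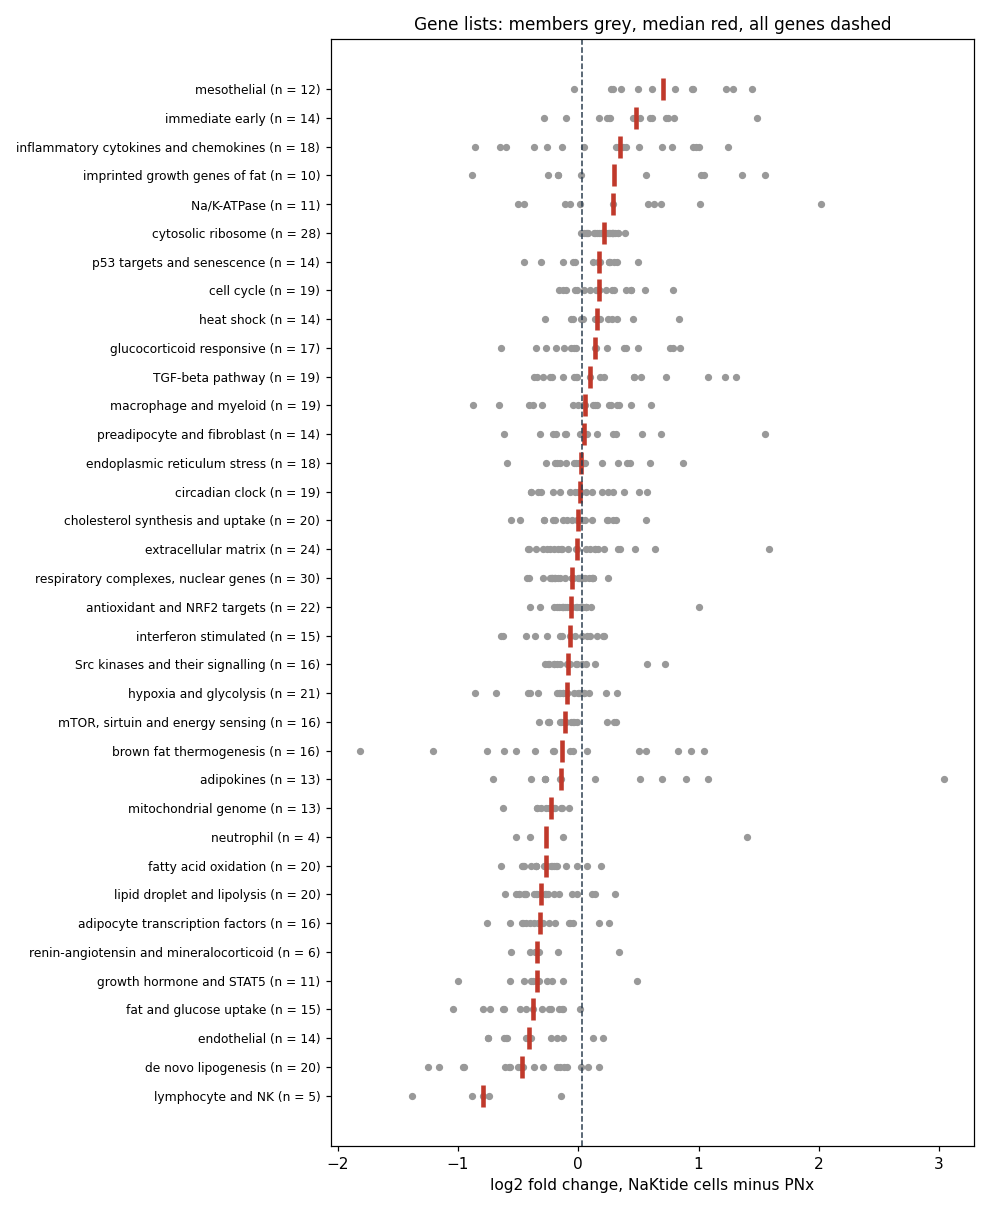
Log2 fold change, NaKtide cells minus PNx, of each tested member (grey) and of the median (red) of 36 gene lists, with the median of all genes tested as a dashed line at 0.03. Mesothelial and immediate early genes lay highest, and lymphocyte and lipogenic genes lowest. Of the 564 members edgeR called 0, DESeq2 3 and voom 105, where voom called 3795 of 17552 over all genes.

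Endothelial genes lay below the median of all genes (median -0.41, or -0.27 with the duct score; 12 of 14 negative), with Pecam1, an adhesion molecule of endothelial cells, at 96.5 to 137 CPM against 116 to 204 CPM. Matrix genes had a median of -0.02, or 0.23 with the duct score, and Col1a1, the main fibrillar collagen, differed by 0.33 (interval -0.49 to 1.16). Among 19 TGF-beta pathway genes, Ccn2, a matrix-associated growth factor, was the member without overlap, at 13.9 to 24.6 CPM with NaKtide cells and 3.50 to 9.54 CPM in PNx, and was singled out for that. The endoplasmic reticulum stress list had a median of 0.02, or -0.16 with the duct score, with 10 of 18 genes positive and 8, Xbp1 among them, negative; Hspa5, the main chaperone of that compartment, was at 308 to 510 and 333 to 434 CPM. The antioxidant list (22 genes) had a median of -0.06, and Hmox1, a stress-induced haem oxygenase, differed by -0.11 (interval -0.77 to 0.55), beside the higher Slc7a11.

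Of the 30 DESeq2 calls, 25 were higher and 5 lower with NaKtide cells, and for 20 the groups did not overlap. Over all genes tested by edgeR, 0.570% were higher and 0.638% lower without overlap. The 30 were picked by low p in these same libraries, which favours such genes, so the 20 add no separate support. In 14 of the 30, 1 library held over 90% of the summed CPM of the 10, and for 9 of these it was NaKtide cells 5, among them Svs2, Svs4, Svs5 and Svs6. In 3 more, Klhl40, Lmod2 and Cacna1s, all genes of striated muscle, it was NaKtide cells 3, at no more than 0.179 CPM and with 0 in the other 9 libraries. Of the 10 genes named above, 8 were also called by DESeq2, at adjusted p-values of 5.08e-07 (Svs2), 0.00187 (Rrs1), 0.00848 (Sfrp5 and Xbp1), 0.0202 (Tuba1a), 0.0327 (C1qtnf7), 0.0478 (Gbp11) and 0.0499 (Slc7a11). Lymphatic genes were among the calls too: Ccl21a, a chemokine of lymphatic vessels with near-identical copies, was at 6.40 to 15.3 CPM with NaKtide cells and 0.456 to 4.54 CPM in PNx under the called one of its 2 gene identifiers, and Mmrn1, a lymphatic matrix protein, at 3.23 to 9.77 and 0.104 to 2.73 CPM. A list of 10 lymphatic vessel genes, which have 11 gene identifiers, was added after the values were seen. The 10 identifiers tested were all positive, with a median of 1.01, and Nts was too low to test (6 counts over the 10 libraries). The spleen and lymph node sum, of which Ccl21a is a tested member, was 23.8 to 58.0 CPM with NaKtide cells and 5.92 to 34.1 CPM in PNx (exact two-sided permutation p = 0.0238, adjusted p = 0.107), and its part in the lymphatic values was not tested. Without NaKtide cells 5 and PNx 3, DESeq2 called 20 genes. The single call of the edgeR fit of only these groups was Brinp2, a gene known from neurons, at 7.03, 5.34, 6.07, 6.71 and 4.90 CPM in NaKtide cells 1 to 5 and at 1.65, 1.35, 1.36, 1.67 and 1.04 CPM in PNx 1 to 5. Its groups did not overlap, and its adjusted p was 0.0314 there and 0.969 in the fit of all 5 arms. The genes of this paragraph that are not among the 10 were chosen by their calls.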

How the data were processed

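The authors deposited raw counts of reads per gene (54232 mouse genes), which were used as they stand; their normalized and FPKM tables were not used. The submitters' processing notes list Trimmomatic (0.38), HISAT2 (2.1.0), DESeq2 (1.20.0, 1.20.1) and build GRCm38 without saying which step used which. The counting tool, its strand setting and its annotation are not stated in those notes, so genes that overlap, run antisense or have close copies are uncertain. Symbols and coordinates are from GENCODE M21 on GRCm38. RNA came from frozen tissue and was read in pairs of 50 bases, per the labels. The 5 visceral fat arms (24 samples) were fitted together with edgeR 4.0.16 (TMM, filterByExpr, quasi-likelihood F test) in R 4.3.3. Benjamini-Hochberg adjustment ran over all genes tested, with a threshold of 0.05. On simulated data this fit called 30 of 99 genes changed by 1 on the log2 scale and 76 of 96 changed by 2. It called 0 of 17070 unchanged genes. A count of 0 calls therefore does not show that levels were equal. Library measures were compared by exact permutation. Alternatives used DESeq2 1.42.0, limma 3.58.1, covariates, other filters and scalings, and left-out libraries. Because fewer than 10 genes were called, the named genes are the 5 higher and 5 lower of lowest p whose mean log2 CPM (prior count 2) reached 2 and whose names are not predicted, with 16 genes of fat function and signalling and up to 2 of the highest members of a list; any other is said to be chosen by its values. Some further genes of that set are not reported here. Members and lists were chosen with earlier results of these data known. The total count per library limits the precision of low genes.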

Additional observations from a re-analysis of the deposited data

Results flagged for a closer look

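In groups of 5, a sample was singled out when its gap to the nearest other sample exceeded 0.71 of the group's range. Of 84 groups examined 13 met this. A rate of about 1 in 20 holds for normally distributed values. CPM values need not be normal and some groups share genes, so the count does not measure an excess over that rate. Of these, 5 concern PNx 2: Tuba1a at 435.2 CPM (others up to 330.7), Slc7a11 at 47.75 CPM (others up to 36.63), and Atp11b at 12.56 CPM (others at least 36.67), beside a mitochondrial share of 4.279% (others at least 6.782%) and an RNA length index of 0.06311 (others up to -0.9281). NaKtide cells 5 had Svs2 at 13030 CPM, Ucp1, the uncoupling protein of brown fat, at 4.344 CPM (others up to 0.7444), and summed levels of 46800 CPM for seminal vesicle and prostate, 2985 CPM for epididymis (others up to 198.9) and 1422 CPM for smooth muscle (others up to 299.1). Of the epididymis sum, 2861 CPM was Pate4, a gene that is also in the seminal vesicle list. Ucp1 was 1.665 CPM in PNx 3 (others up to 0.4152). NaKtide cells 1 had summed levels of 9567 CPM for blood (others up to 3137) and 22.83 CPM for pancreas (others up to 6.402). The cause of these values was not tested.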

How the results depend on the processing

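Between NaKtide cells and PNx, edgeR called 0 genes in all its fits of 5 arms, including each left-out library; DESeq2 called 30 (20 without NaKtide cells 5 and PNx 3), voom with quality weights 3795, with weights from 0.223 (PNx 2) to 3.80 (PNx 5), and the fit of only these groups 1. Against control cells DESeq2 called 317 (294 without those libraries) and voom 122. Against scrambled cells the count of 414 became 1670 with DESeq2 (1315 without those libraries), 841 with voom, 65 with only those groups, 745 with the RNA length index, 217 with the duct score and 0 with tissue scores as covariates, 177 without NaKtide cells 5 and PNx 3, 959 without NaKtide cells 1 and PNx 2, and 147 to 740 without single libraries. For PNx against Sham the count of 2283 became 4647 with voom, 384 with only those groups, 0 with tissue scores, 1465 without NaKtide cells 5 and PNx 3, and 1089 to 4057 without single libraries. The replicate block gave 0 calls against PNx, 0 against control cells, 179 against scrambled cells and 1654 for PNx against Sham; same-numbered NaKtide and PNx libraries correlated at -0.75 to 0.63 over 5 pairs and 0 of 5 correlated best with their own number, so the numbers were not taken as pairs. Of 551 gene values under alternatives 518 kept direction and call, 20 passed the threshold and 13 changed sign. The sign changes were in the Hmox1 log2 fold change (-0.167 to 0.0105 without single libraries), the Ppargc1a log2 fold change (0.0867 with the RNA length index, 0.0458 with tissue scores, 0.0959 or, with DESeq2, 0.0962 without NaKtide cells 5 and PNx 3, 0.0178 without NaKtide cells 1 and PNx 2, and -0.405 to 0.205 without single libraries) and the Ucp1 log2 fold change (-0.405 with voom, -0.0554 with the RNA length index, -0.872 to 1.81 without single libraries). The cause was not tested. Of 828 list medians under alternatives 549 kept their sign and stayed within 1.5 times, 216 kept their sign and moved further, and 63 changed sign. Alternatives with left-out pairs of libraries or the duct score were chosen after seeing the data.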
